A study of Rattus norvegicus with 22 samples.

Results

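The last interval of a muscle injury experiment, 28 days (28D) against 14 days (14D) after the lesion, was examined in the calcaneus tendon (CT) of the rat. The comparison holds 12 of the 22 rats of the series, 6 in 28D and 6 in 14D, which are all rats with those time labels, and all 22 target genes measured by qRT-PCR. The rats were male Wistar animals of 4 months of age when the experiment began. In 28D and 14D the belly of the gastrocnemius muscle was exposed and frozen with an iron bar cooled in liquid nitrogen, so that the muscle was lesioned and the CT itself was not, and the tendon was taken 28 or 14 days afterwards. The other rats were killed 3 days after the same lesion (3D, 5 rats) or had no lesion (C, 5 rats), and no sham operation is described for C. Each rat gave its own RNA. Cage mates belonged to the same group, so cage and group cannot be told apart, and the same holds for age at harvest and time after injury.

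A tendon is a sparse population of fibroblasts, the tenocytes, in a dense matrix made mainly of type I collagen with smaller amounts of type III collagen, small proteoglycans and glycoproteins. Tenocytes respond to the load that the muscle puts on them. Latent TGF-β1 stored in the matrix is released under load and signals through SMAD-2 and SMAD-3, and the transcription factors scleraxis (SCX), mohawk (MKX) and early growth response 1 drive the genes of tendon identity and collagen synthesis. After an injury a tendon matrix typically passes through a stage rich in type III collagen, fibronectin and tenascin C before type I collagen predominates again. The question of the comparison is how far these genes differ between the stage at which the lesioned muscle is remodeling and the stage at which it is largely repaired.

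Expression is given as log2 expression, which is the cycle threshold (Ct) of the reference gene RPLP0 minus the Ct of the target gene in the same rat. A higher value means more mRNA relative to RPLP0, and 1 unit is a doubling when each PCR cycle doubles the product. Values of different genes were not compared as levels, because each assay has its own efficiency and probe. Of the 264 values in 28D and 14D, 263 were used, none was a filled in group mean, and the only blank was SDC-4 in replicate 6 of 28D. Ct lay between 21.8 and 38.3 in 28D (median 29.9) and between 22.4 and 36.9 in 14D (median 28.2). Wells above a Ct of 35, where few template molecules enter a reaction, numbered 6 in 28D, of which 5 were IL-6, and 2 in 14D, both of them IL-6. The remaining well of 28D was TIMP-1 in replicate 5, at a Ct of 35.8. The panel holds 3 genes that mark tendon cells, and SCX, MKX and tenomodulin (TNMD) gave a Ct in each of the 12 rats. With no other tissue beside them this is no test of the tissue label. TNMD had a mean Ct of 24.2 in 28D and 23.5 in 14D. The panel holds no marker of muscle fibres, endothelium, adipocytes or leukocytes, so an admixture of those cells was not tested. In such whole-tendon RNA, fewer cells of a type and less RNA per cell cannot be told apart.

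The reference gene itself stood at different cycles in the 2 groups. RPLP0, which encodes a ribosomal stalk protein, came up at a Ct of 28.8 ± 1.28 in 28D (SD, n = 6, range 26.8 to 30.0) and of 27.1 ± 1.15 in 14D (SD, n = 6, range 26.3 to 29.3). The difference was 1.72 cycles (two-sided exact permutation test, p = 0.0303, where 0.00216 is the smallest p that 6 against 6 rats allow). When each rat was left out in turn the difference ran from 1.48 to 2.15 cycles, and the exact permutation p ran from 0.0108 to 0.0714 and was under 0.05 in 4 of 12 fits. The groups overlapped: replicate 4 of 28D, at 26.8, and replicate 2, at 27.8, lay among the 14D rats, while replicate 3 of 14D, at 29.3, lay among the 28D rats. The target genes were later as well. Their mean Ct was 29.9 ± 1.34 in 28D and 28.4 ± 1.04 in 14D (SD, n = 6 each), and all 22 genes had a later mean Ct in 28D, by 0.40 cycles for ERG1 up to 3.11 cycles for COL1A1. After subtraction of RPLP0, the mean of the target genes was -1.02 ± 0.24 in 28D and -1.32 ± 0.49 in 14D (SD, n = 6 each), a difference of 0.29 in log2. Every higher value of 28D given below is therefore relative to RPLP0 and takes the opposite sign on Ct alone, where the median difference over the genes was -1.34, whereas the 5 lower genes are lower on both. The part of the RPLP0 difference in the single-gene values was not tested, and the gene pairs given further on contain no RPLP0.

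**Figure D1:**
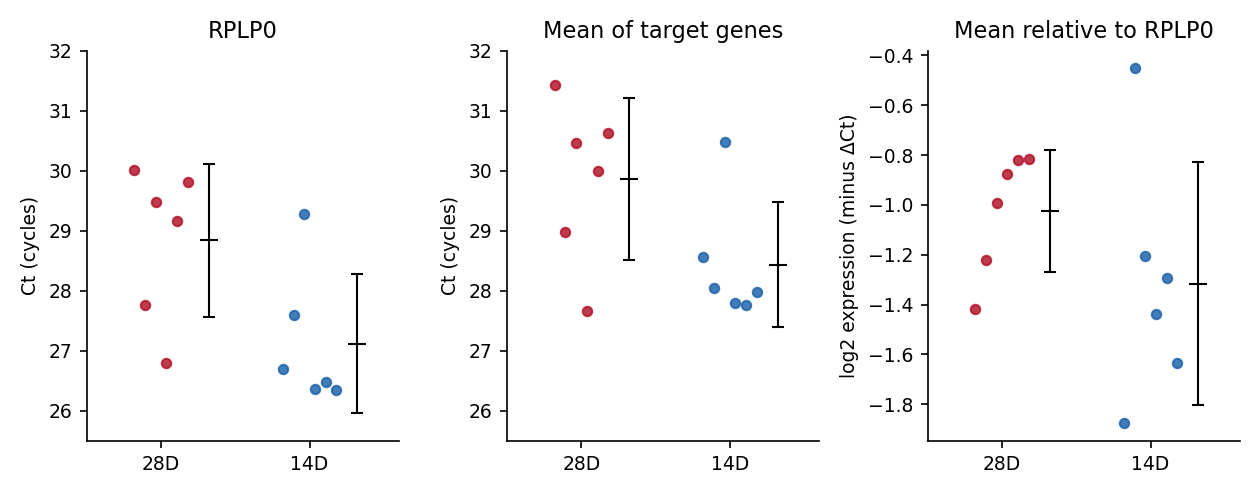
Ct of RPLP0 (left, cycles), mean Ct of the target genes (middle, cycles) and mean log2 expression of the target genes relative to RPLP0 (right) in each of the 6 rats of 28D and of 14D, with mean and SD beside the points. RPLP0 and the target genes both came later in 28D, by 1.72 and 1.43 cycles, and the mean relative to RPLP0 was higher in 28D by 0.29.

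Relative to RPLP0, 17 of 22 genes (77.3%) had a higher mean in 28D than in 14D and 5 had a lower one, with a median difference of 0.38 in log2. The genes with a lower mean in 28D were COL1A1, BGN, MMP-2, FN and IL-6. No gene passed an adjusted p under 0.05 (0 of 22, 0%; limma, Benjamini-Hochberg adjustment over 22 genes and 6 pairs of groups), and the smallest adjusted p was 0.0786, for COL1A1. Without adjustment, limma gave p under 0.05 for 2 genes (9.09%), TNMD higher and COL1A1 lower in 28D. The exact permutation test gave p under 0.05 for 3 genes (13.6%), TNMD and SCX higher and COL1A1 lower, and the smallest adjusted exact p over the 22 genes was 0.246. There was no gene whose 28D and 14D rats did not overlap (0%). The standard error of the differences came from the spread shared by C, 3D, 14D and 28D, not from 28D and 14D alone. It ran from 0.30 for MMP-2 to 1.09 for TIMP-1, so for the most variable genes a difference of several fold would not be separable from that spread. With only 14D and 28D in the model, limma gave p under 0.05 without adjustment for 4 genes, and 0 passed after adjustment.

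**Figure D2:**
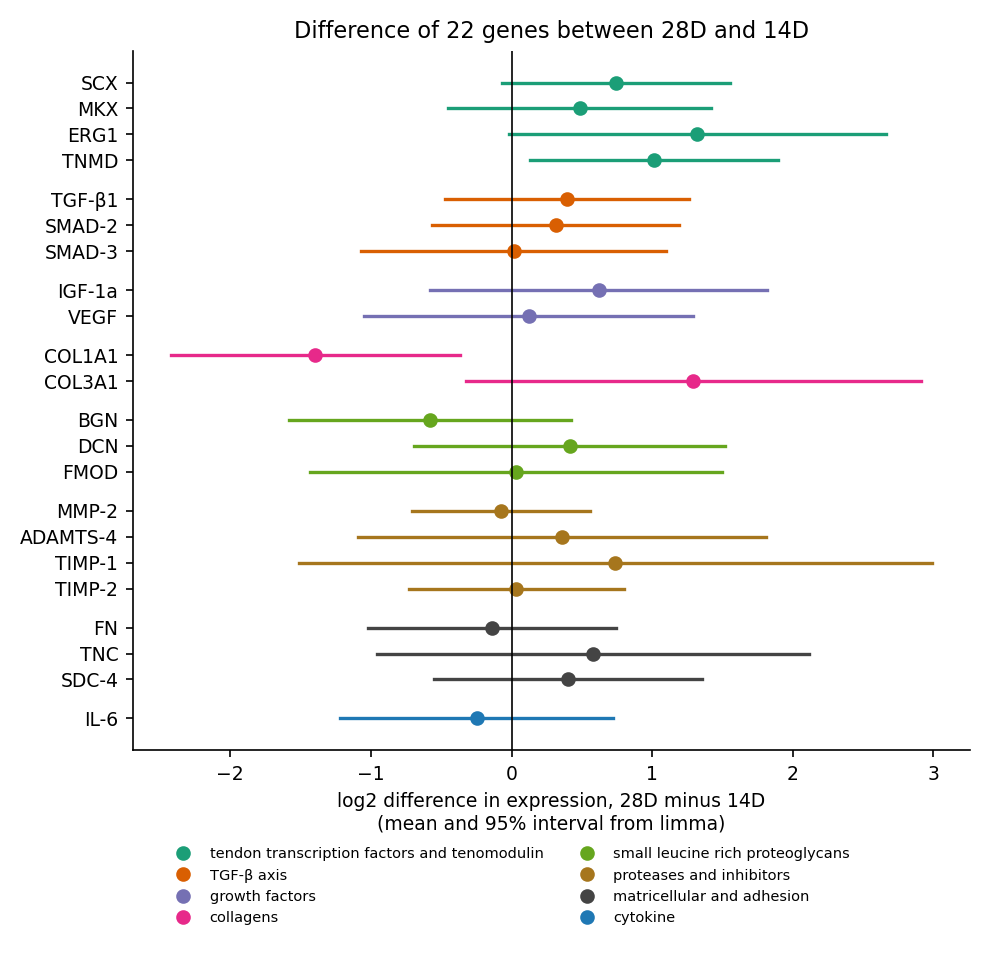
Log2 difference in expression relative to RPLP0, 28D minus 14D, for the 22 genes in their role groups, as points with the 95% interval from limma. TNMD lies above 0 and COL1A1 below 0 with intervals that leave out 0 before adjustment, the other 20 intervals include 0, and on Ct alone every gene would lie below 0.

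The genes of tendon identity were the group with the largest median difference. All 4 of them, SCX, MKX, ERG1 and TNMD, had a higher mean in 28D relative to RPLP0, against 77.3% of all genes. Their median difference was 0.88 in log2, against 0.38 over all 22 genes. They kept that sign when the average over all target genes served as the reference and turned it on Ct alone.

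TNMD encodes tenomodulin, a membrane glycoprotein of mature tenocytes that in mice supports their proliferation and the maturation of collagen fibrils. Its log2 expression ran from 4.24 over a median of 4.54 to 5.15 in the 28D rats, and from 2.85 over 3.54 to 4.78 in the 14D rats. Thus 5 of the 6 rats of 14D lay below every 28D rat, and only replicate 2 of 14D, the rat with the highest value of its own group in 16 of the 22 genes, reached into the 28D range. The means were 4.62 ± 0.36 in 28D and 3.61 ± 0.77 in 14D (SD, n = 6 each), a difference of 1.01 (SE 0.43, 95% interval 0.13 to 1.89), or 2.02-fold. The exact permutation p was 0.0195, the adjusted p from limma was 0.155, and the exact p remained under 0.05 when each of the 12 rats was left out in turn, from 0.00216 to 0.0411.

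SCX encodes scleraxis, the basic helix-loop-helix factor that specifies tendon progenitors and activates COL1A1 and TNMD. Its log2 expression ran from -1.51 over -0.47 to 0.08 in the 28D rats, and from -1.59 over -1.40 to -0.86 in the 14D rats. In 4 of the 6 rats of 28D it was above every 14D rat, whereas replicates 1 and 4 of 28D lay inside the 14D range. The means were -0.58 ± 0.64 in 28D and -1.32 ± 0.30 in 14D (SD, n = 6 each), a difference of 0.74 (SE 0.39, 95% interval -0.07 to 1.56), or 1.67-fold. The exact permutation p was 0.0346 and the adjusted p from limma was 0.275. The exact p stayed under 0.05 in only 4 of the 12 fits that each left out 1 rat and reached 0.0649 in the others. Over these fits the difference ran from 0.61 to 0.93.

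The assay that the study calls ERG1 is paired with Egr1 in the deposited table, the gene of a zinc finger factor that is induced by load and promotes type I collagen synthesis in tendon cells. Its log2 expression ran from -1.70 over 1.00 to 1.92 in the 28D rats, and from -1.36 over -0.92 to -0.11 in the 14D rats. The 28D rats were split, with 4 of them above every 14D rat, replicate 2 inside the 14D range and replicate 4 below every 14D rat. The means were 0.54 ± 1.41 in 28D and -0.78 ± 0.48 in 14D (SD, n = 6 each), a difference of 1.32 (SE 0.65, 95% interval -0.02 to 2.66), or 2.50-fold. This was the largest of the 17 positive differences, with a spread 2.93 times as wide in 28D as in 14D. The exact permutation p was 0.0606 and the adjusted p from limma was 0.239. When each rat was left out in turn the exact p ran from 0.00866 (without replicate 4 of 28D) to 0.123 (without replicate 3 of 28D) and was under 0.05 in 2 of 12 fits.

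MKX encodes mohawk, a homeobox factor that in mice is needed for the postnatal growth of collagen fibrils. Its log2 expression ran from -0.59 over -0.22 to 0.22 in the 28D rats, and from -1.34 over -0.46 to -0.28 in the 14D rats. The ranges overlapped, with 3 rats of 28D above every 14D rat and 2 rats of 14D below every 28D rat. The difference was 0.48 (SE 0.45), or 1.40-fold, with an exact permutation p of 0.0671 and an adjusted p from limma of 0.556.

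**Figure D3:**
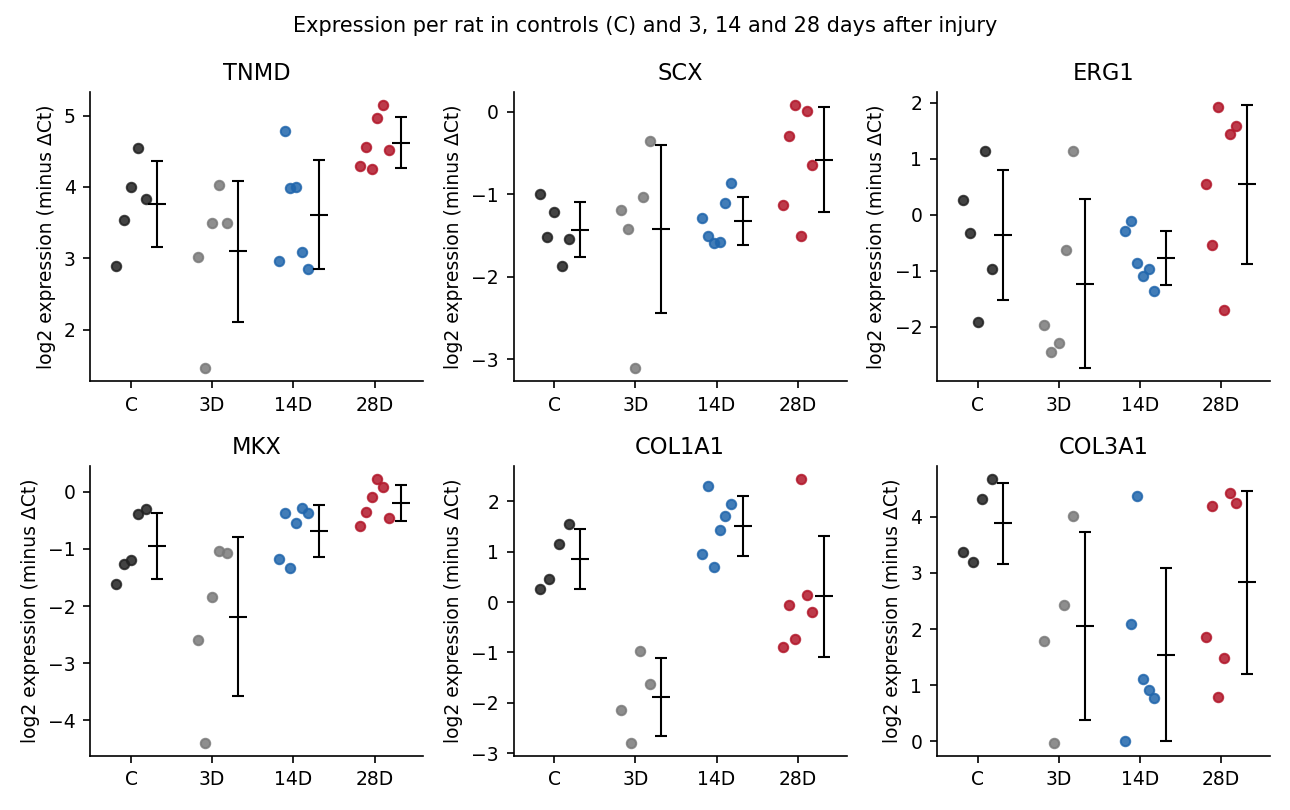
Log2 expression relative to RPLP0 of TNMD, SCX, ERG1, MKX, COL1A1 and COL3A1 in each rat of C, 3D, 14D and 28D, with mean and SD beside the points. For TNMD 5 of the 6 rats of 14D lie below every 28D rat, and for COL1A1 5 of the 6 rats of 28D lie below every 14D rat while replicate 4 of 28D lies above them all.

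Outside the genes of tendon identity, only the 2 collagens differed by more than 1 log2 unit, with opposite signs relative to RPLP0 and the same sign on Ct alone. COL1A1, the alpha 1 chain of type I collagen and the main structural product of the tenocyte, had log2 values from -0.89 over -0.13 to 2.44 in the 28D rats, and from 0.70 over 1.57 to 2.30 in the 14D rats. Of the 6 rats of 28D, 5 lay below every 14D rat and replicate 4, at 2.44, lay above every 14D rat. The next highest 28D rat was at 0.14. The means were 0.11 ± 1.21 in 28D and 1.51 ± 0.60 in 14D (SD, n = 6 each), a difference of -1.40 (SE 0.49, 95% interval -2.42 to -0.37), so that 28D had 0.380 times the 14D level, with an exact permutation p of 0.0346 and an adjusted p from limma of 0.0786. Without replicate 4 of 28D the groups no longer overlapped, the difference was -1.86, the exact permutation p was 0.00216 and the adjusted p from limma was 0.00635. The exact p was under 0.05 in 4 of the 12 fits that each left out 1 rat, and the difference stayed between -1.86 and -1.19 in all 12.

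COL3A1, the chain of the thinner type III fibrils that come first in a healing matrix, had log2 values from 0.79 over 3.03 to 4.42 in the 28D rats, and from 0.01 over 1.01 to 4.37 in the 14D rats. Both groups were split, since replicates 2, 5 and 6 of 28D stood at 4.19 and above with the other 28D rats at 1.87 or below, and replicate 3 of 14D stood at 4.37 with the other 14D rats at 2.08 or below. The means were 2.83 ± 1.63 in 28D and 1.54 ± 1.54 in 14D (SD, n = 6 each), a difference of 1.29 (SE 0.78, 95% interval -0.33 to 2.91), or 2.45-fold, with an exact permutation p of 0.177 and an adjusted p from limma of 0.336.

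In the TGF-β axis all 3 genes had a higher mean in 28D relative to RPLP0 by at most 0.40, against 77.3% of all genes, and SMAD-3 turned when the average over all target genes served as the reference, as all 3 did on Ct alone. TGF-β1, the growth factor that induces matrix synthesis, was at -2.68 ± 0.27 in 28D and at -3.08 ± 0.36 in 14D (SD, n = 6 each), a difference of 0.40 (SE 0.42) with an exact permutation p of 0.0606. All 6 rats of 28D were above the 14D median, and 3 rats of 14D lay below every 28D rat. SMAD-2, a receptor-activated mediator of the TGF-β signal, differed by 0.31 (SE 0.43, exact permutation p = 0.435), and by 0.074 to 0.47 when each rat was left out in turn.

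SMAD-3, the other mediator of that signal, had log2 values from -4.35 over -3.80 to -1.30 in the 28D rats, and from -4.75 over -3.40 to -2.52 in the 14D rats. The median was lower and the highest rat was higher in 28D, because replicate 4 of 28D, at -1.30, stood above every other rat. The means were therefore near equal, -3.42 ± 1.12 in 28D and -3.43 ± 0.79 in 14D (SD, n = 6 each). The difference was 0.015 (SE 0.52, 95% interval -1.07 to 1.10), with an exact permutation p of 0.981 and an adjusted p from limma of 0.995. Without replicate 4 of 28D it was -0.41, and the exact permutation p was between 0.333 and 0.996 over the 12 fits that each left out 1 rat. An effect of up to about 2-fold in either direction lies inside the interval.

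The growth factors IGF-1a, which stimulates collagen synthesis by tenocytes, and VEGF, which drives the ingrowth of vessels, were less variable in 28D than in 14D. IGF-1a was at -2.41 ± 0.77 in 28D and at -3.03 ± 1.46 in 14D (SD, n = 6 each), and VEGF was at -3.03 ± 0.69 in 28D and at -3.15 ± 1.18 in 14D (SD, n = 6 each). The differences were 0.62 for IGF-1a (SE 0.58, exact permutation p = 0.368) and 0.12 for VEGF (SE 0.56, exact permutation p = 0.844). When each rat was left out in turn the IGF-1a difference ran from 0.30 to 1.00. For IGF-1a the 6 rats of 28D lay above the 14D median and 4 rats of 14D lay below every 28D rat, with replicates 2 and 3 of 14D at -1.11 and -1.34.

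The small leucine rich proteoglycans bind collagen and limit the width of its fibrils. Biglycan (BGN) had a lower mean in 28D, -2.81 ± 1.09 in 28D and -2.23 ± 0.85 in 14D (SD, n = 6 each), a difference of -0.58 (SE 0.48, exact permutation p = 0.338) that was -0.25 without replicate 3 of 28D and -0.28 without replicate 2 of 14D. Decorin (DCN), the most abundant of the family in tendon, differed by 0.41 (SE 0.53, exact permutation p = 0.481), and by 0.19 to 0.73 when each rat was left out in turn. Fibromodulin (FMOD), which also steers collagen crosslinking, differed by 0.033 (SE 0.71, exact permutation p = 0.961), and fold changes from 0.371 to 2.82 lie inside its 95% interval.

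Among the genes of matrix turnover the lowest exact permutation p was 0.639. MMP-2, a gelatinase that cleaves denatured collagen, was the least variable gene of the panel in 28D, at -0.80 ± 0.19 in 28D and -0.73 ± 0.40 in 14D (SD, n = 6 each), and differed by -0.073 (SE 0.30, 95% interval -0.70 to 0.56, exact permutation p = 0.738). TIMP-2, an inhibitor of that enzyme, differed by 0.034 (SE 0.37, 95% interval -0.73 to 0.80, exact permutation p = 0.872). ADAMTS-4, an aggrecanase, differed by 0.36 (SE 0.70, exact permutation p = 0.690), but by -0.097 without replicate 3 of 28D, by -0.073 without replicate 6 of 14D and by -1.11 in the relative expression table. There 1 of its 28D values is blank and 3 others lie more than 0.1 log2 from what the deposited ΔCt gives. TIMP-1, a secreted inhibitor of metalloproteinases, had the widest spread of all genes within 28D, running from -6.59 over -4.11 to 1.18 in the 28D rats and from -5.60 over -4.37 to -3.37 in the 14D rats, so that its difference of 0.74 (SE 1.09, exact permutation p = 0.639) has an interval from -1.51 to 2.99. Without replicate 3 of 28D, the rat at 1.18, the difference was -0.23. The rat at -6.59, replicate 5 of 28D, had a late Ct of 35.8, and without it the difference was 1.33.

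The matricellular and adhesion genes are provisional matrix and receptor components that cells use to migrate. Tenascin C (TNC), an anti-adhesive glycoprotein of loaded and healing tendon, ran from -2.67 over -1.03 to 2.87 in the 28D rats and from -2.33 over -1.30 to 0.34 in the 14D rats. Its difference of 0.58 (SE 0.74, exact permutation p = 0.584) was -0.12 without replicate 3 of 28D, the rat at 2.87. Syndecan-4 (SDC-4), a transmembrane proteoglycan of focal adhesions, differed by 0.40 (SE 0.46, exact permutation p = 0.266, n = 5 in 28D and 6 in 14D) and by 0.18 without replicate 4 of 28D, and fibronectin (FN), a ligand of integrins, by -0.14 (SE 0.43, exact permutation p = 0.745). IL-6, the only cytokine of the panel, stood at a mean Ct of 36.7 in 28D and 34.7 in 14D, with only replicate 4 of 28D under a Ct of 35 in its group, and differed by -0.25 (SE 0.46, exact permutation p = 0.578).

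Since the RPLP0 term is the same for every gene of a 28D or 14D rat, the difference between 2 genes within such a rat holds no reference gene. All pairs of the 22 target genes were compared in this way, and 31 of them (13.4%) had an exact permutation p under 0.05. None passed after Benjamini-Hochberg adjustment over all pairs (0%), a threshold that the smallest p of 6 against 6 rats could meet only if more than 10 pairs reached that p, where the smallest adjusted p was 0.15 and was shared by 10 pairs, and in 3 pairs (1.3%) the 28D and 14D rats did not overlap. Limma took its spread also from C and 3D, where 6 rats have more than 1 implied RPLP0 Ct. With limma in place of the exact test, 6 pairs passed after the same adjustment. These, named after their values were seen, were COL1A1 with TNMD (TNMD minus COL1A1 higher by 2.41 in 28D), with MKX (MKX minus COL1A1 higher by 1.88), with SMAD-2, with SMAD-3 and with SDC-4 (COL1A1 minus SDC-4 lower, at -1.74), and TNMD with BGN, at adjusted p from 0.0156 to 0.0336 by limma. The pairs are not independent, since each gene is in 21 of them. COL1A1 was part of 16 of the 31 pairs with p under 0.05, and TNMD was part of 7. COL1A1 was lower in 28D against each of the other 21 genes, and TNMD was higher against 19 of 21. These signs follow from the order of the single-gene differences, in which COL1A1 was lowest, and are no separate result. ERG1 was higher against 21 of 21 genes and COL3A1 against 20, each with 1 pair with p under 0.05.

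Each of the 3 pairs without overlap held COL1A1 or TNMD. SMAD-3 minus COL1A1 was -3.53 ± 0.51 in 28D and -4.94 ± 0.51 in 14D (SD, n = 6 each), a difference of 1.41, so that COL1A1 stood 2.66-fold lower against SMAD-3 in 28D (exact permutation p = 0.00216, adjusted p = 0.15). SMAD-2 minus COL1A1 was -3.38 ± 0.83 in 28D and -5.09 ± 0.39 in 14D (SD, n = 6 each), a difference of 1.71, or 3.27-fold (exact permutation p = 0.00216, adjusted p = 0.15). TNMD minus MMP-2 spanned 5.17 to 5.84 in the 28D rats and 3.78 to 4.92 in the 14D rats, with means of 5.43 ± 0.26 in 28D and 4.34 ± 0.47 in 14D (SD, n = 6 each), a difference of 1.09 (exact permutation p = 0.00216, adjusted p = 0.15). Replicate 4 of 28D, which stood above all 14D rats for COL1A1 relative to RPLP0, lay on the side of its own group in both SMAD pairs, because its SMAD-2 and SMAD-3 values were also the highest of 28D.

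TNMD stood higher in 28D against BGN and FN as well, both among the 5 genes with a lower mean in 28D relative to RPLP0. TNMD minus BGN was 7.43 ± 0.81 in 28D and 5.84 ± 0.54 in 14D (SD, n = 6 each), a difference of 1.59 (exact permutation p = 0.00433), and TNMD minus FN was 4.21 ± 0.57 in 28D and 3.05 ± 0.41 in 14D (SD, n = 6 each), a difference of 1.15 (exact permutation p = 0.00433). Within the proteoglycans, BGN minus DCN was -4.30 ± 0.27 in 28D and -3.31 ± 0.46 in 14D (SD, n = 6 each). That difference of -0.995, or a 1.99-fold lower BGN against DCN in 28D, had an exact permutation p of 0.00649 and an adjusted p of 0.15, although neither gene alone had a p under 0.05. All these 6 pairs kept an exact p under 0.05 when each of the 12 rats was left out in turn. For the 3 pairs without overlap that outcome was fixed, since groups that do not overlap stay apart when 1 rat is dropped. All but BGN with DCN were also picked by their small p in these same rats, so the result is no separate evidence.

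The ratio of the 2 collagens was less firm. COL1A1 minus COL3A1 ran from -4.44 over -3.51 to 0.96 in the 28D rats and from -3.67 over 0.56 to 1.18 in the 14D rats, with means of -2.72 ± 2.13 in 28D and -0.03 ± 1.82 in 14D (SD, n = 6 each). The difference was -2.69, or 6.43-fold (exact permutation p = 0.0476, adjusted p = 0.353). One rat of each group lay with the other group, replicate 4 of 28D at 0.96 and replicate 3 of 14D at -3.67, and the exact p was under 0.05 in 3 of the 12 fits that each left out 1 rat. In C the same value was -2.69 ± 0.58 and in 3D it was -3.90 ± 1.12 (SD, n = 3 each), with no test. C was not near 28D in every pair: SMAD-3 minus COL1A1 was -4.13 ± 0.46 in C (SD, n = 4), between 28D at -3.53 and 14D at -4.94.

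For the remaining fixed pairs the rats overlapped throughout. MMP-2 minus TIMP-1 differed by -0.81 (exact permutation p = 0.600) and by 0.18 without replicate 3 of 28D, and MMP-2 minus TIMP-2 by -0.11 (exact permutation p = 0.732) and by 0.097 without replicate 3 of 14D. SMAD-2 minus SMAD-3 differed by 0.30 (exact permutation p = 0.279), SCX minus MKX by 0.26 (exact permutation p = 0.463), SCX minus TNMD by -0.27 (exact permutation p = 0.606) and FN minus TNC by -0.72 (exact permutation p = 0.649), which was 0.21 without replicate 3 of 28D.

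**Figure D4:**
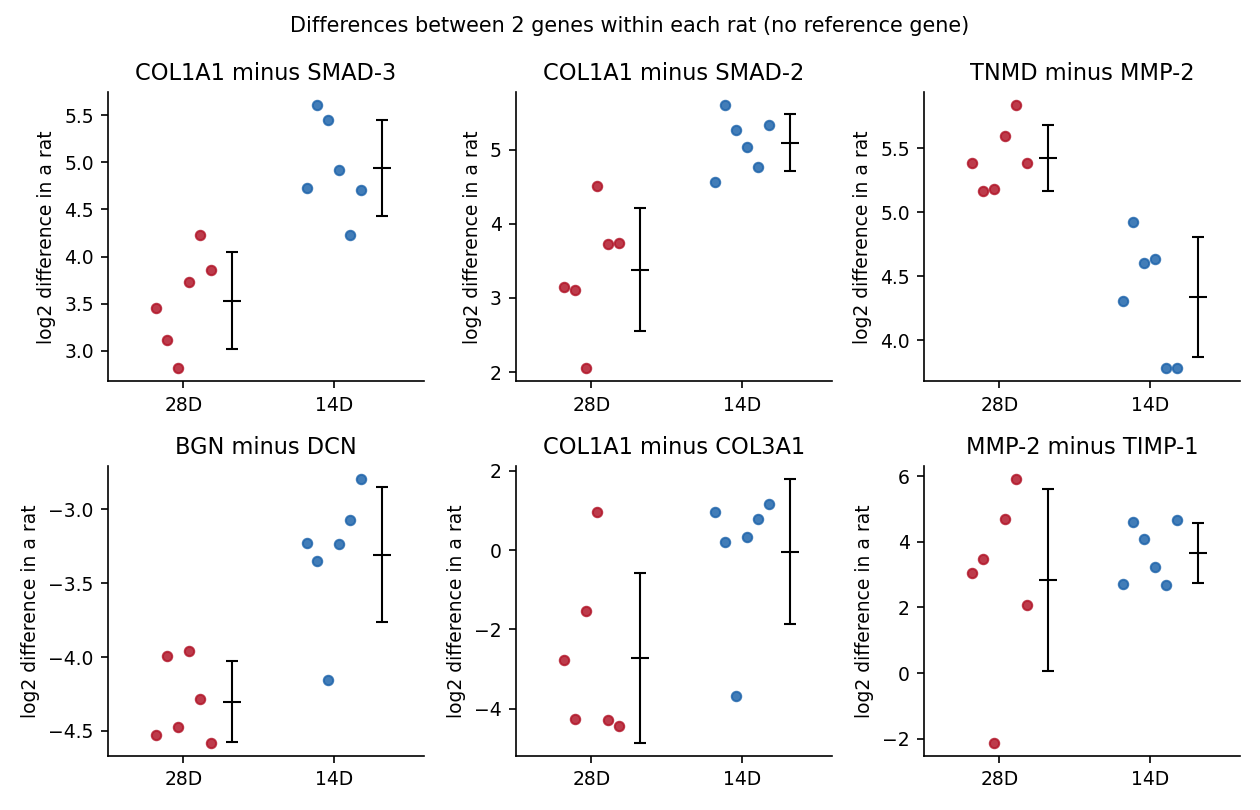
Log2 difference between 2 genes within each of the 6 rats of 28D and of 14D, with mean and SD beside the points, and no reference gene. COL1A1 against SMAD-3 and SMAD-2 and TNMD against MMP-2 do not overlap between the groups, BGN minus DCN overlaps through replicate 3 of 14D, and COL1A1 minus COL3A1 and MMP-2 minus TIMP-1 overlap.

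The rats of a group differed in ways shared by many genes. Within 28D, replicate 4 was highest in 11 genes and lowest in 4, and replicate 3 was highest in 5 and lowest in 9, so that their means over the target genes, -0.88 and -0.99, hide opposite gene patterns. In replicate 3 of 28D the highest genes of the group were ERG1 at 1.92, SCX at 0.08, TNC at 2.87, TIMP-1 at 1.18 and ADAMTS-4 at -1.41, and BGN at -4.47, DCN at 0.0084, FMOD at 0.79 and FN at -0.72 were among its 9 lowest. In replicate 4 of 28D the order of most of these genes was turned, with ERG1 at -1.70, SCX at -1.51, TNC at -2.67 and ADAMTS-4 at -6.56 the lowest of the group and BGN at -1.48, DCN at 2.47 and FMOD at 4.86 the highest. TIMP-1 and FN were not at an extreme in replicate 4. The genes of tendon identity did not move together: TNMD was lowest in replicate 3, at 4.24, and second highest in replicate 4, at 4.97. MKX was highest in replicate 4, at 0.22. Within 14D, replicate 2 had the highest value in 16 of the 22 genes and a mean over the target genes of -0.45, while replicate 1 had the lowest value in 10 genes and a mean of -1.88. The SD was larger in 28D than in 14D for 13 of the 22 genes. Replicate 4 of 28D also had the earliest RPLP0 of its group, at a Ct of 26.8, and replicate 3 of 14D had the latest of its own, at 29.3, and the part of this in their gene patterns was not tested.

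**Figure D5:**
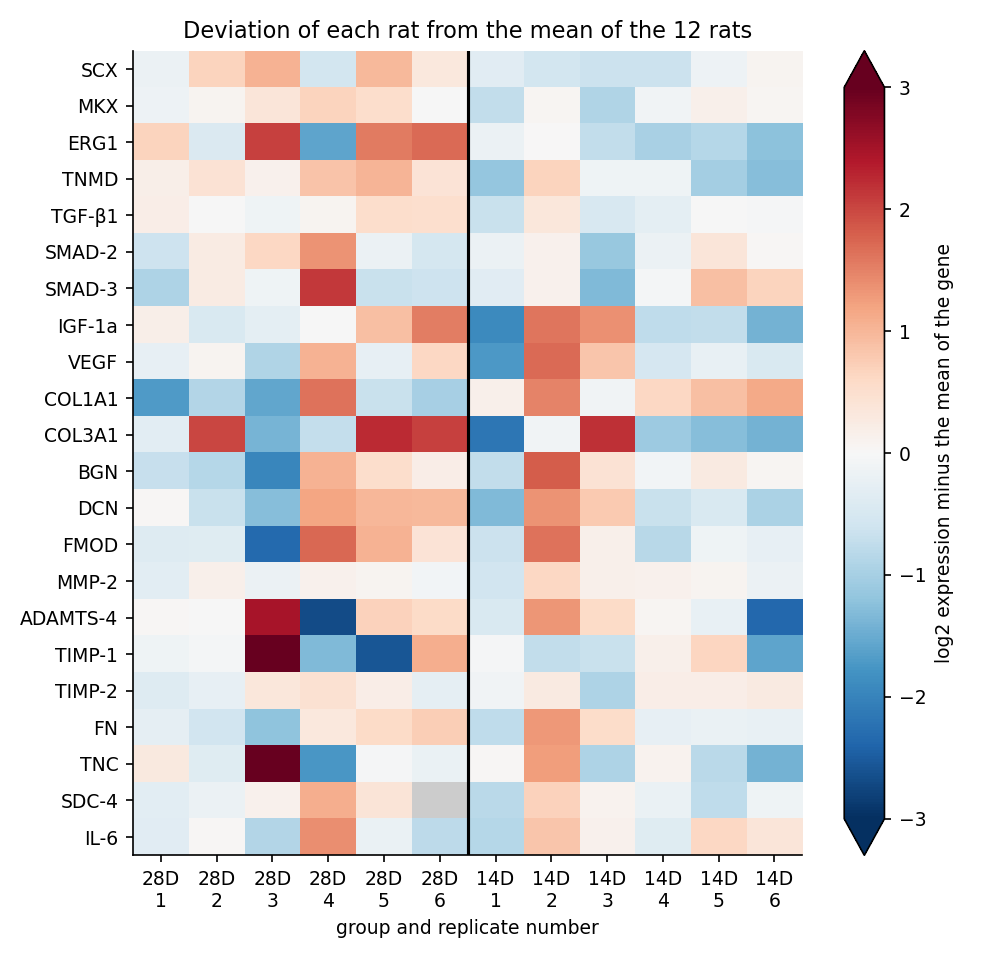
Log2 expression of the 22 genes in each of the 6 rats of 28D and of 14D, as the deviation from the mean of the 12 rats (colour scale in log2 units, grey for the blank SDC-4 value). Replicates 3 and 4 of 28D show opposite signs for ERG1, ADAMTS-4, TNC, BGN, DCN and FMOD, and replicate 2 of 14D is above the mean in most genes.

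Set beside the earlier groups, the 28D mean was the highest of the 4 group means for all 4 genes of tendon identity, as it was for 13 of the 22 genes. SCX was at -1.43 ± 0.33 in C, -1.42 ± 1.02 in 3D, -1.32 ± 0.30 in 14D and -0.58 ± 0.64 in 28D, so that the first 3 group means lay within their SD of each other. ERG1 was at -0.36 ± 1.17 in C, -1.24 ± 1.51 in 3D, -0.78 ± 0.48 in 14D and 0.54 ± 1.41 in 28D. MKX, which was at -0.95 ± 0.57 in C and -2.19 ± 1.39 in 3D, was at -0.68 ± 0.46 in 14D and -0.20 ± 0.32 in 28D. TNMD was at 3.76 ± 0.61 in C, 3.10 ± 0.98 in 3D, 3.61 ± 0.77 in 14D and 4.62 ± 0.36 in 28D. COL1A1 had another course, with C at 0.85 ± 0.60, 3D at -1.89 ± 0.77, 14D at 1.51 ± 0.60 and 28D at 0.11 ± 1.21. It was the only one of the 22 genes with its highest mean in 14D and its mean in 28D below C (SD throughout, n = 4 or 5 in C and 3D and 6 in 14D and 28D). COL3A1 was at 3.88 ± 0.72 in C, 2.05 ± 1.67 in 3D, 1.54 ± 1.54 in 14D and 2.83 ± 1.63 in 28D.

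Over the whole panel, the 28D mean was above the 3D mean in 20 of 22 genes and above the C mean in 15, and the 14D mean was above the 3D mean in 18 and above the C mean in 12. The 28D mean was nearer to the C mean than the 14D mean was in 6 of 22 genes, namely VEGF, COL3A1, FMOD, MMP-2, TIMP-1 and FN. These orders are descriptions of means with no test, and in 6 rats of C and 3D the deposited values imply more than 1 RPLP0 Ct, which does not occur in 28D or 14D.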

How the data were processed

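Rats were assigned to groups and numbered by GEO's labels, and each rat is a replicate. Total RNA of the CT was reverse transcribed and amplified with TaqMan assays in technical duplicates, all samples of a gene in the same run. The authors deposited Ct without normalization, ΔCt (Ct of the gene minus Ct of RPLP0, a log2 scale with reversed sign) and relative expression, a ratio to C. Log2 expression was minus the deposited ΔCt. Blank values, and values equal within 1e-06 to the mean of the other rats of the group (22 of 484 in the series, none in 28D or 14D), were left out.

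Differences, SE and 95% intervals came from limma 3.58.1 in R 4.3.3, fitting C, 3D, 14D and 28D together without a covariate, and Benjamini-Hochberg adjustment over 132 tests (22 genes, 6 pairs of groups), at an adjusted p under 0.05. Beside it, two-sided exact permutation tests over rats were run per gene and for all gene pairs within rats (Python 3.11.15). The fits were tested on simulated data. qRT-PCR has no sequencing depth, and the number of rats limits the precision. Folds take a doubling per cycle.

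All 22 genes are named. Full values are given for TNMD, SMAD-3, SCX and ERG1, whose late difference the study discusses, and for genes with an adjusted or an exact p under 0.05. Named pairs were 8 fixed ones and the 5 others with the smallest exact p, ties by the size of the difference, and 3 more that limma called are named after their values were seen. The members, gene groups and pairs were chosen with earlier results of these data known. Alternatives changed the reference gene, deposited table, scale, late wells, samples in the model, test, adjustment, weights, block and each rat. The relative expression table served as an alternative only. The assays of CTGF, GAPDH and ACTB were not analysed here.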

Additional observations from a re-analysis of the deposited data

Results flagged for a closer look

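In 4 of the 46 sets of values of 1 gene in 1 group that were examined, the highest or lowest rat lay far from the nearest other rat by Dixon's criterion, which chance alone meets in about 1 set in 20. In 28D, COL1A1 was at 2.44 in replicate 4 with the next rat at 0.14, and TNC was at 2.87 in replicate 3 with the next rat at -0.63. In 14D, replicate 3 was the low rat for SMAD-2, at -4.56 with the next rat at -3.61, and for TIMP-2, at -0.78 with the next rat at 0.04. Replicate 3 was also the 14D rat with the latest RPLP0, at a Ct of 29.3.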

How the results depend on the processing

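The count of genes that passed with limma, 0 with all rats, was 1 (COL1A1) when the average over all target genes served as the reference, 2 (TNMD and COL1A1) with the authors' relative expression table, and between 0 and 1 when each rat was left out in turn (1 without 28D replicate 4). It stayed 0 under the other alternatives. The split of higher and lower means was 17 and 5 with RPLP0, 0 and 22 on Ct alone, 13 and 9 with the mean of the target genes, 14 and 8 in the relative expression table and 19 and 3 with RPLP0 as a covariate, and the median difference was -1.34 on Ct alone and 0.09 with the mean of the target genes. On Ct alone the mean of the target genes was -1.43 and 17 genes turned: SCX -0.97, MKX -1.23, ERG1 -0.40, TNMD -0.71, TGF-β1 -1.32, SMAD-2 -1.41, SMAD-3 -1.70, IGF-1a -1.10, VEGF -1.60, COL3A1 -0.43, DCN -1.30, FMOD -1.69, ADAMTS-4 -1.36, TIMP-1 -0.98, TIMP-2 -1.68, TNC -1.14 and SDC-4 -1.12. With the mean of the target genes SMAD-3 was -0.28, VEGF -0.17, FMOD -0.26 and TIMP-2 -0.26. The relative expression table gave FMOD -0.048, MMP-2 0.071, ADAMTS-4 -1.11, TIMP-1 -0.87, TIMP-2 -0.13, FN 0.27 and TNC -0.066, and in 11 values of 28D and 15 of 14D it lies more than 0.1 log2 from what the deposited ΔCt gives. It is also blank for 4 values of 28D and 2 of 14D that have a Ct, in FMOD, ADAMTS-4, TIMP-1 and TNC. Linear values gave VEGF -0.061, Dunn's procedure a mean rank difference of -1.50 for SMAD-3, the RPLP0 covariate MMP-2 0.13 and IL-6 0.28, and leaving out wells above a Ct of 35 IL-6 1.04, where 28D is replicate 4 alone. The cause was not tested for the others.

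When each rat was left out in turn, the RPLP0 difference ran from 1.48 to 2.15 cycles, and its exact permutation p reached 0.0714 and was under 0.05 only without 28D replicates 2 or 4 or 14D replicates 2 or 3. The mean of the target genes ran from 0.18 to 0.47, and the count of genes with a higher mean in 28D from 13 (without 28D replicate 4) to 19 (without 14D replicate 2). The sign turned in these: ADAMTS-4 -0.10 to 0.93, FMOD -0.31 to 0.50, FN -0.31 to 0.11, MMP-2 -0.20 to 0.045, SMAD-3 -0.41 to 0.20, TIMP-1 -0.23 to 1.33, TIMP-2 -0.15 to 0.12, TNC -0.12 to 0.99, VEGF -0.21 to 0.47, FN minus TNC -1.20 to 0.21, MMP-2 minus TIMP-1 -1.42 to 0.18 and MMP-2 minus TIMP-2 -0.22 to 0.10. The other 13 genes kept their sign, some with a wide range: BGN -0.84 to -0.25, IGF-1a 0.30 to 1.00, SMAD-2 0.074 to 0.47, DCN 0.19 to 0.73 and SDC-4 0.18 to 0.58. The count of gene pairs that passed was 0 with the exact test and in every fit that left out 1 rat, and 6 with limma, where 4 groups shared the spread. With so few rats the exact p is bounded, so the repeated 0 is no sign of stability.

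Replicate numbers gave no pairing of the rats: same-numbered rats correlated between -0.71 and 0.08 in their deviations over 21 genes, and 0 of 6 matched best with their own number. With the replicate block, 0 genes and 0 gene pairs passed and the RPLP0 difference was 1.72 cycles (exact permutation of signs, p = 0.0312, the smallest that 6 pairs allow). For gene pairs that count decides nothing, because 6 pairs of rats bound the p of each. The number of rats and the spread between them limit what can be seen, and IL-6 is also limited by its late Ct.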
